A study of Mus musculus with 72 samples.

Results

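A set of 100 protein-coding genes stood at a level away from wild type, in the same direction, both in the epidermis of mice with a blocked clock gene Bmal1 and in the epidermis of mice in which Bmal1 was given back to keratinocytes. They were chosen from 11356 protein-coding genes whose log2 CPM averaged 1 or more over 72 libraries (CPM is the count scaled to the total of its library, with a prior count of 2 on the log2 scale). For each gene the median log2 CPM was taken in each genotype, the difference of the KO and of the RE median from the WT median was formed (called the shift here), and genes with both shifts of 1 sign were ranked by the smaller of them. Both shifts had the same sign in 6741 of the 11356 genes, and the first 100 in rank are described here. Of these, 72 were lower and 28 were higher in KO and RE than in WT.

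The libraries hold RNA from interfollicular epidermis, separated from the dermis of back skin with dispase, of C57BL/6 females aged 8 weeks that had been moved into constant darkness at 7 weeks. KO mice (Bmal1-stopFL) carry a stop cassette in the Bmal1 gene, whose symbol in the mouse annotation is Arntl, and have no Cre. RE mice (Bmal1-stopFL/K14-Cre) carry the same allele together with a Cre recombinase under the keratin 14 promoter, which is active in keratinocytes, so that Bmal1 is restored there and stays blocked in other cells. WT mice (K14-Cre) carry the Cre and no stop cassette, so KO differed from WT in the allele and in the Cre, which cannot be told apart. Each genotype had 24 libraries, 1 per mouse, with 4 mice at each of 6 time points between 156 and 176 h of darkness.

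Bmal1 is a transcription factor that pairs with Clock or Npas2 and drives genes with E-boxes, among them the Per and Cry repressors that close the feedback loop, and the Rev-erb receptors, which repress Npas2 and Bmal1 itself. In epidermis the clock is known to time the cell cycle and the response of stem cells to growth signals. Skin also receives time cues from clocks elsewhere in the body, and it holds Langerhans cells, resident T cells, melanocytes and follicle epithelium beside its interfollicular keratinocytes.

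The depth of the libraries lay between 24.5 and 95.03 M counts (median 35.4 M). Arntl itself stood at 22.6 to 33.6 CPM in KO (median 29.9), at 47.5 to 78.0 CPM in RE (median 63.1) and at 16.9 to 103 CPM in WT (median 43.6). Summed keratinocyte markers (Krt5, Krt14, Krt1, Krt10 and 6 others) had a median of 43760 CPM in KO, 41922 CPM in RE and 40053 CPM in WT, so the libraries carried the markers of the labelled tissue. Replicate 4 of time point 6 in KO, replicate 4 of time point 6 in WT and replicate 1 of time point 6 in RE lay lowest on the first principal component. Mitochondrial genes made 5.47%, 8.36% and 5.94% of their counts, beside medians of 2.55% in KO, 2.51% in WT and 2.53% in RE. Replicate 2 of time point 6 in WT, which was not among the 3, had 5.70%. The KO library was the lowest KO library for 38 of the 100 genes and the highest for 31, and the WT library was the lowest WT library for 34 and the highest for 23. Without these 3 libraries the rule took 89 of the same 100 genes, and where a member's full range given below moved by over 1.5 times without them, the range without them follows.

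The shifts were small for most of the set and large for a few genes. The smaller of the shifts ran from 0.40 to 1.40 on the log2 scale, the median absolute shift was 0.74 in KO and 0.55 in RE, and over all eligible genes these medians were 0.10 and 0.06. These values chose the genes and are given as a description. The last genes taken were Pdpn, Tiparp and Angptl2, with smaller shifts of 0.405, 0.404 and 0.403, and the first left out were Fkbp5, Ano7 and Faah with 0.400, 0.399 and 0.399, so the end of the list is not a natural boundary. The RE shift was smaller than the KO shift in 74 genes and larger in 26, and its median share of the KO shift was 75.3%. KO and RE were both measured against the same 24 WT libraries.

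**Figure D1:**
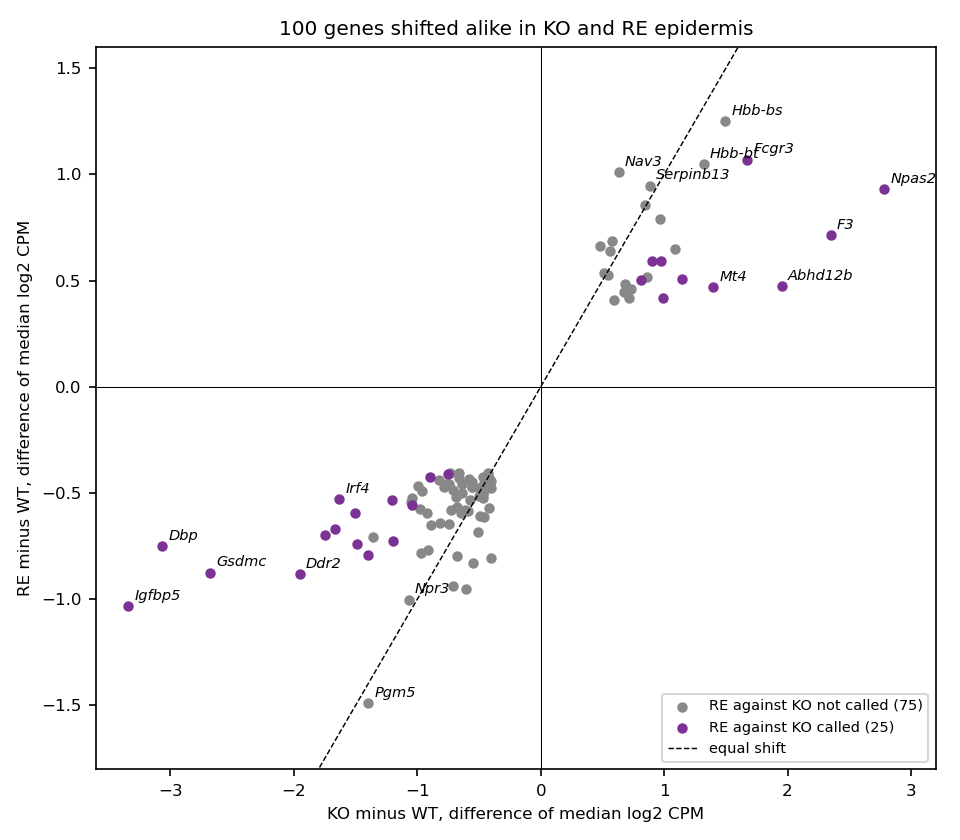
Shift of each of the 100 genes from WT, as differences of median log2 CPM over 24 libraries per genotype, with KO minus WT on the horizontal axis and RE minus WT on the vertical axis. Purple points are the 25 genes whose level differed between RE and KO (edgeR, adjusted p under 0.05), and they lie between the horizontal axis and the dashed line of equal shift, whereas Pgm5, Npr3 and Serpinb13 lie close to that line.

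Across single animals the separation from WT was incomplete. In KO, 2 of the 100 genes had all 24 libraries outside the range of the 24 WT libraries (Igfbp5 and Abhd12b), against 0.0969% of eligible genes. Without the 3 libraries the count was 4, with Npas2 and Fcgr3 added, against 0.176% of eligible genes. In RE none had, and none of the 11356 eligible genes had either. The sign held at all 6 time points in 56 genes for KO, in 38 for RE and in 28 for both, against 2.26% of eligible genes for both. All of these counts rest on the contrasts that chose the genes.

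RE was tested against KO, a contrast on which the genes had not been ranked, though it reads the same libraries. RE differed from KO in the restored keratinocyte Bmal1 and in the Cre itself, which cannot be told apart. One edgeR quasi-likelihood model of all 72 libraries was used, with a separate mean and a separate 24 h wave for every genotype. An adjusted p (Benjamini-Hochberg over 18538 genes) under 0.05 was called. The level differed between RE and KO in 25 of the 100 genes, against 22.5% of all genes tested, a share close to that background. RE was higher in 15 and lower in 10, against 11.5% and 11% of all genes. In each of the 25 RE lay nearer to WT than KO did. Among the eligible genes with shifts of 1 sign, 20.8% were called with RE nearer to WT and 3.01% with RE farther. The median absolute RE minus KO difference was 0.21 in the set and 0.11 over all genes tested. For the 75 genes that were not called, the 95% interval of the difference stayed within 0.5 log2 units of 0 in 34 and reached farther in 41, so for these 41 the data leave room for a difference of that size.

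**Figure D2:**
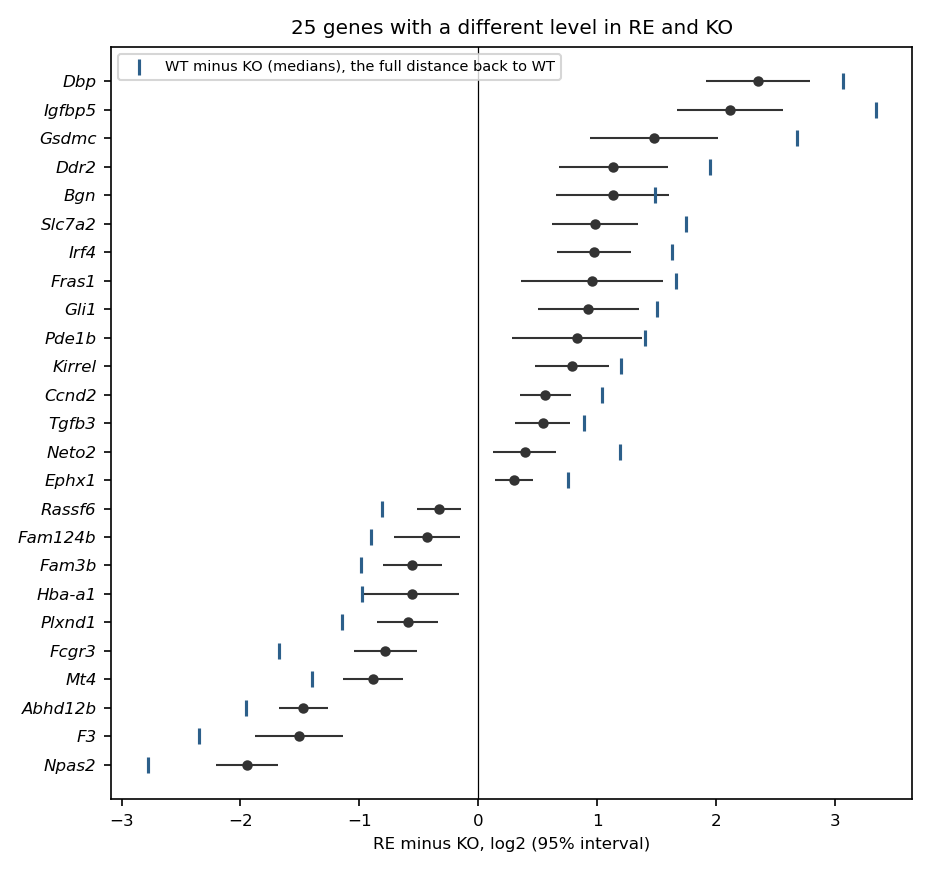
RE minus KO level on the log2 scale with its 95% interval for the 25 genes called, from the edgeR model of 72 libraries (points and bars), and the distance from the KO median to the WT median (blue ticks). Every point lies on the side of its tick, from 2.36 for Dbp and 2.12 for Igfbp5 to -1.94 for Npas2.

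Clock factors gave 4 members. Npas2, the Clock paralog that pairs with Bmal1 (chromosome 1, 39193731-39363236, plus strand, GRCm38), had 27.5 to 110 CPM in KO (median 73.9), 10.5 to 36.0 CPM in RE (median 20.4) and 5.73 to 50.6 CPM in WT (median 10.7). Its RE libraries lay inside the WT range, and WT means stood between 7.06 and 13.5 CPM at 4 of the 6 time points. The lowest KO value came from replicate 4 of time point 6, and without the 3 libraries the KO range, 53.6 to 110 CPM, lay above the WT range, which ended at 50.6 CPM. RE minus KO was -1.94 ± 0.13 on the log2 scale (standard error, n = 24 each, edgeR adjusted p = 7.02e-19). Dbp, a PAR bZIP output factor (chromosome 7, 45705088-45710203, plus strand), had 3.95 to 7.17 CPM in KO (median 5.55), 8.25 to 59.8 CPM in RE (median 27.9) and 1.97 to 139 CPM in WT (median 47.2). The KO and RE ranges of Dbp did not overlap (without the 3 libraries RE began at 13.2 CPM), and RE minus KO was 2.36 ± 0.22 (edgeR adjusted p = 8.81e-13). The RE shift of Dbp was 24.5% of its KO shift.

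Per2, a repressor of the clock loop, was shifted by -0.61 in KO and -0.58 in RE. It had 14.9 to 76.2 CPM in KO (median 32.3), 7.28 to 132 CPM in RE (median 33.1) and 2.68 to 160 CPM in WT (median 50.6), so both ranges lay within that of WT. Bhlhe40, a repressor that competes for E-boxes, was shifted by -0.82 in KO and -0.64 in RE, with medians of 207, 234 and 365 CPM in KO, RE and WT. RE minus KO was -0.10 (95% interval -0.50 to 0.30) for Per2 and 0.21 (-0.17 to 0.58) for Bhlhe40, and neither was called. Among all 19 core clock genes RE was higher than KO in 9 and lower in 5 by the edgeR test, against 11.5% and 11% of all genes tested. The 4 members hold both called and uncalled clock genes. Nr1d1, the Rev-erb alpha gene and no member, ranked 167 with shifts of -4.60 in KO and -0.33 in RE.

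Cell cycle genes gave 3 members. Cyclin D2 (Ccnd2), which with Cdk4 and Cdk6 carries cells out of G1, had 38.5 to 325 CPM in KO (median 256), 144 to 610 CPM in RE (median 359) and 187 to 795 CPM in WT (median 528). RE lay between KO and WT, and RE minus KO was 0.56 ± 0.11 (edgeR adjusted p = 5.56e-05). Its paralog cyclin D1 (Ccnd1) followed the same order, with medians of 83.5 CPM in KO, 102 CPM in RE and 140 CPM in WT, but its difference of 0.29 ± 0.12 did not pass (edgeR adjusted p = 0.079). The lowest KO value of Ccnd2 was replicate 4 of time point 6, and without the 3 libraries named above the range was 181 to 325 CPM in KO and 225 to 610 CPM in RE. Rec8, a meiotic cohesin subunit, was higher, with shifts of 0.60 in KO and 0.41 in RE. None of the 24 mitosis and 24 S phase genes listed was a member, where members make 0.881% of eligible genes. Of the S phase genes, 17 were lower and 0 higher in both KO and RE, against 31.0% and 28.3% of eligible genes. Their median shift was -0.38 in KO and -0.11 in RE, and RE was called higher than KO for 8 of the 24, against 11.5% of all genes tested. Of the mitosis genes, 0 were lower and 12 higher in both.

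The largest group held ligands, receptors and growth signalling, with 18 members lower and 6 higher. Igfbp5, a secreted protein that binds insulin-like growth factors (chromosome 1, 72857932-72874884, minus strand), had 0.274 to 2.46 CPM in KO (median 0.732), 1.34 to 10.5 CPM in RE (median 3.85) and 2.76 to 20.6 CPM in WT (median 7.93). Every KO library lay below every WT library, and RE lay between them with overlap on both sides. RE minus KO was 2.12 ± 0.22 (edgeR adjusted p = 2.82e-11), and the RE shift was 30.9% of the KO shift.

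Npr3, the clearance receptor for natriuretic peptides (chromosome 15, 11839896-11907287, minus strand), had 0.649 to 22.1 CPM in KO (median 13.0), 4.79 to 42.9 CPM in RE (median 13.6) and 4.24 to 48.9 CPM in WT (median 27.3). The KO and RE medians were close to each other, and RE minus KO was 0.20 with a 95% interval of -0.18 to 0.58. Its lowest KO and WT values came from replicate 4 of time point 6, and without the 3 libraries the ranges were 6.52 to 22.1 CPM in KO, 4.79 to 42.9 CPM in RE and 12.3 to 48.9 CPM in WT. Lifr, the receptor of leukemia inhibitory factor, had the same order, with medians of 81.6 CPM in KO, 84.3 CPM in RE and 127 CPM in WT and a 95% interval of RE minus KO of -0.23 to 0.23.

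For other members of the group RE lay between KO and WT. Ddr2, a collagen receptor tyrosine kinase, had 1.98 to 28.7 CPM in KO (median 8.59), 7.41 to 81.2 CPM in RE (median 18.1) and 18.9 to 49.1 CPM in WT (median 33.4), with RE minus KO of 1.14 ± 0.23 (edgeR adjusted p = 1.63e-04). Pde1b, a calmodulin-dependent phosphodiesterase, had 1.11 to 14.2 CPM in KO (median 3.56), 0.772 to 22.8 CPM in RE (median 5.45) and 3.07 to 17.7 CPM in WT (median 9.48). Its RE minus KO of 0.83 ± 0.27 passed (edgeR adjusted p = 0.0212) but did not without replicate 1 of time point 5 in RE (adjusted p = 0.067). Tgfb3, a transforming growth factor beta ligand, and Neto2, an auxiliary subunit of kainate receptors, were also called, with RE minus KO of 0.54 and 0.39. The Neto2 call was lost for 3 of the 4 replicate numbers left out in turn (edgeR adjusted p up to 0.144).

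The other lower members of the group were the receptors Npy1r, Oxtr, Il31ra and Ptprz1, the ligands Tnfsf9, Sema3e and Angptl2, and the intracellular signalling proteins Rasgrf1, Gem, Elmod1 and Dgkh. Their KO shifts ran from -0.98 for Rasgrf1 to -0.40 for Angptl2, and none of these 11 was called for RE minus KO. The 6 higher members were Lrrc32, Plxnd1, Rassf6, Il33, Gpr37 and Fam3b. Lrrc32, a membrane protein that docks latent TGF-beta, had 0.946 to 22.4 CPM in KO (median 12.0), 3.52 to 15.2 CPM in RE (median 10.6) and 1.96 to 22.9 CPM in WT (median 6.13). Without the 3 libraries the medians were 11.7 CPM in KO and 10.7 CPM in RE, and the WT range ended below both, at 8.27 CPM. Plxnd1 encodes the receptor of semaphorin 3E, and it was shifted by 1.15 in KO and 0.51 in RE while its ligand gene Sema3e was shifted by -0.43 and -0.41. RE was lower than KO for Plxnd1 (-0.59), Rassf6 (-0.33) and Fam3b (-0.55) by the edgeR test. The call for Rassf6 was lost without replicate 3 (edgeR adjusted p = 0.125).

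**Figure D3:**
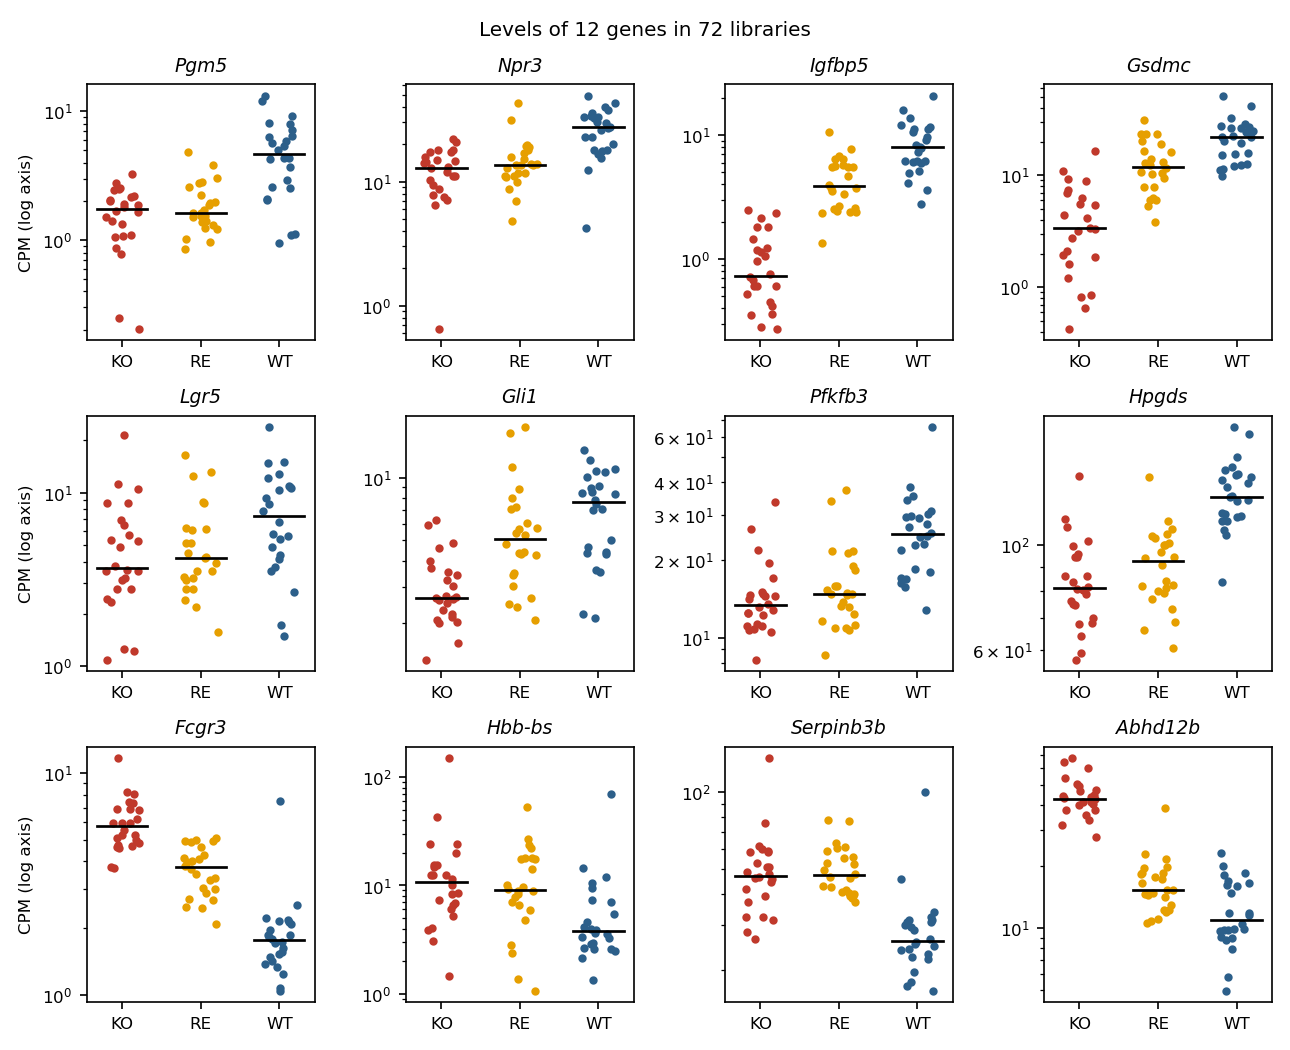
CPM of 12 of the genes in each library of KO, RE and WT epidermis on log axes, with 24 points per genotype and the median as a bar. RE points sit with KO for Pgm5, Npr3, Pfkfb3 and Serpinb3b and between KO and WT for Igfbp5, Gsdmc and Gli1, and for Abhd12b the medians are 42.7 CPM in KO, 15.3 CPM in RE and 11.0 CPM in WT.

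Regulators of hair follicle and tissue patterning gave 8 members, of which 7 were lower. Lgr5, an R-spondin receptor and follicle stem cell marker (chromosome 10, 115450311-115587780, minus strand), had 1.09 to 21.5 CPM in KO (median 3.68), 1.57 to 16.5 CPM in RE (median 4.20) and 1.48 to 23.8 CPM in WT (median 7.29). The ranges overlapped almost fully (without the 3 libraries KO ended at 11.3 CPM), and RE minus KO was 0.01 with a 95% interval of -0.50 to 0.52. The follicle stem cell factors Lhx2 and Tbx1 and the Wnt and FGF attenuator Shisa2 were shifted by -0.78, -0.89 and -0.92 in KO and by -0.47, -0.65 and -0.59 in RE. Gli1, a target and effector of hedgehog signalling, and Fras1, a protein of the epidermal basement membrane, rose in RE over KO by 0.93 ± 0.21 and 0.96 ± 0.30 (edgeR adjusted p = 7.43e-04 and 0.0145), the call for Fras1 being lost without replicate 2 of time point 6 in RE (0.0503). Tshz3, a zinc finger factor, was lower, and Nkd2, a Wnt inhibitor, was higher, with shifts of 0.58 in KO and 0.69 in RE.

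Many follicle markers were lower as well. Of the 12 hair follicle markers measured, 9 were lower in KO and RE than in WT, against 31.0% of eligible genes. Lhx2 is both on this list and a member. RE was called higher than KO for 3 of the 12 and lower for 1, against 11.5% and 11% of all genes tested. Their median RE minus KO was 0.96. The summed level of the 12 was 34.7 to 166 CPM in KO (median 53.5), 41.5 to 172 CPM in RE (median 52.3) and 51.4 to 124 CPM in WT (median 63.3). In whole epidermis, fewer cells of a type and less RNA per cell cannot be told apart, and the part of follicle cells in these shifts was not tested. All 7 melanocyte markers were likewise lower in both, with summed medians of 20.5 CPM in KO, 23.0 CPM in RE and 26.4 CPM in WT. Lower in both were also 6 of 9 sebaceous gland, 4 of 7 fibroblast and 5 of 9 resident T cell markers. The same held for 4 of 5 Merkel cell and 3 of 5 endothelium markers, whose sums had medians under 1 CPM. Resident T cell markers summed to medians of 146 CPM in KO, 137 in RE and 126 in WT. Higher in both was 1 each of the fibroblast, resident T cell and endothelium markers. Of keratinocyte markers 3 of 10 were lower and 4 higher, and of adipocyte markers 1 of 7 and 2. All 7 skeletal muscle and 5 erythrocyte markers were higher, against 28.3% of eligible genes.

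Among enzymes 12 members were lower and 5 higher. Pgm5, a phosphoglucomutase family protein found at adhesion sites (chromosome 19, 24683016-24861855, minus strand), ranked first. It had 0.205 to 3.25 CPM in KO (median 1.74), 0.861 to 4.88 CPM in RE (median 1.63) and 0.950 to 13.1 CPM in WT (median 4.68). KO and RE were alike in range and lay in the lower part of the WT range, the RE shift was 107% of the KO shift, and RE minus KO was 0.19 with a 95% interval of -0.21 to 0.58.

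Pfkfb3, Egln3 and Slc16a3 were grouped by their role in glycolysis and low oxygen after their values were seen. Pfkfb3, which makes the activator of phosphofructokinase (chromosome 2, 11471433-11554077, minus strand), had 8.20 to 33.7 CPM in KO (median 13.4), 8.53 to 37.3 CPM in RE (median 14.8) and 12.8 to 65.5 CPM in WT (median 25.2). Egln3, a prolyl hydroxylase of hypoxia-inducible factor, was shifted by -0.56 in KO and -0.47 in RE, and Slc16a3, a lactate exporter, by -0.60 and -0.95. None of these 3 was called for RE minus KO, with 95% intervals of -0.16 to 0.34 for Pfkfb3, -0.27 to 0.35 for Egln3 and -0.77 to 0.02 for Slc16a3.

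Cyp1a1 and Tiparp were shifted by -1.04 and -0.40 in KO and by -0.52 and -0.81 in RE, and the glucuronosyltransferase Ugt1a6a by 0.48 and 0.66. Epoxide hydrolase Ephx1 had medians of 97.8 CPM in KO, 124 CPM in RE and 165 CPM in WT, and RE was higher than KO by 0.30 ± 0.08 (edgeR adjusted p = 0.00387). Abhd12b, a serine hydrolase family gene (chromosome 12, 70154142-70183887, plus strand), had 27.9 to 67.3 CPM in KO (median 42.7), 10.6 to 38.7 CPM in RE (median 15.3) and 4.97 to 23.3 CPM in WT (median 11.0). KO stood above every WT library, RE overlapped both, and RE minus KO was -1.47 ± 0.10 (edgeR adjusted p = 1.32e-18).

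The remaining lower enzymes were Hpgds (prostaglandin D synthase), Elovl3 (a fatty acid elongase of sebaceous glands), Carns1 (carnosine synthase), Sardh, Dpyd and Azin1 (antizyme inhibitor), with KO shifts from -1.36 for Sardh to -0.41 for Elovl3. Higher were Adh6b, Mettl21e and Steap4, with KO shifts of 0.57, 0.55 and 0.51 and RE shifts of 0.64, 0.53 and 0.53. Hpgds was shifted by -0.64 in KO and -0.46 in RE, with a 95% interval of RE minus KO of -0.12 to 0.19. Of the transporters, Slc7a2 (cationic amino acids), Slc16a3, Slc20a1 (phosphate) and Atp10a (a lipid flippase) were lower and Slc5a1 (sodium-coupled glucose uptake) was higher. Slc7a2 rose in RE over KO by 0.99 ± 0.18 (edgeR adjusted p = 3.22e-05), from libraries of 7.15 to 42.5 CPM in RE and 3.86 to 19.6 CPM in KO.

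Genes of the barrier gave 4 higher and 3 lower members. Serpinb3b and Serpinb13, clade B protease inhibitors that lie 0.173 Mb apart on chromosome 1 (start positions), were shifted by 0.85 and 0.88 in KO and by 0.85 and 0.95 in RE. Serpinb3b had 26.5 to 136 CPM in KO (median 47.1), 37.2 to 77.7 CPM in RE (median 47.3) and 16.6 to 100 CPM in WT (median 26.1). Serpinb13 had 1.09 to 7.75 CPM in KO (median 2.39), 1.48 to 4.61 CPM in RE (median 2.51) and 0.417 to 5.04 CPM in WT (median 1.27). For both the KO and RE medians were nearly equal and above that of WT, and the 95% interval of RE minus KO was -0.35 to 0.19 for Serpinb3b and -0.36 to 0.35 for Serpinb13. The highest WT value of Serpinb3b was replicate 4 of time point 6, and without the 3 libraries its range ended at 75.9 CPM in KO and 45.6 CPM in WT, while that of Serpinb13 ended at 4.73 CPM in KO and 2.15 CPM in WT.

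Mt4, the metallothionein of stratified epithelia, and Endou, a poly(U)-specific endoribonuclease, were higher, with KO shifts of 1.40 and 0.86 and RE shifts of 0.47 and 0.52. RE was below KO for Mt4 by -0.88 ± 0.13 (edgeR adjusted p = 1.86e-07). Gsdmc, of the pore-forming gasdermin family (chromosome 15, 63775968-63808759, minus strand), had 0.426 to 16.4 CPM in KO (median 3.37), 3.86 to 31.2 CPM in RE (median 12.0) and 9.89 to 50.9 CPM in WT (median 22.0). The 3 genotypes formed a graded order with overlap, and RE minus KO was 1.48 ± 0.27 (edgeR adjusted p = 3.04e-05). The keratins Krt6b and Krt4 were lower, with KO shifts of -0.68 and -0.51 and RE shifts of -0.57 and -0.68. Krt6b, a keratin of stressed epidermis, reached 349 CPM in 1 RE library, against a RE median of 48.7 CPM and a WT median of 72.3 CPM.

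F3 (tissue factor, the starter of the clotting cascade) was higher. It had 5.30 to 49.2 CPM in KO (median 25.2), 3.07 to 17.5 CPM in RE (median 8.09) and 2.37 to 14.7 CPM in WT (median 4.89), and RE minus KO was -1.51 ± 0.18 (edgeR adjusted p = 3.42e-09). The WT range of F3 ended at 8.82 CPM without the 3 libraries.

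Immune members were Fcgr3 and Ifi202b. Fcgr3, a low-affinity Fc receptor for IgG known from myeloid and natural killer cells (chromosome 1, 171051174-171064935, minus strand), had 3.74 to 11.7 CPM in KO (median 5.76), 2.08 to 5.12 CPM in RE (median 3.76) and 1.04 to 7.46 CPM in WT (median 1.76). Without the 3 libraries the ranges were 3.74 to 8.22 CPM in KO, 2.08 to 5.12 CPM in RE and 1.04 to 2.54 CPM in WT, so the KO range then lay above the WT range. RE minus KO was -0.78 ± 0.13 (edgeR adjusted p = 6.96e-06). Of the 9 Langerhans cell markers, 8 were lower in KO and RE than in WT, against 31.0% of eligible genes. Their summed medians were 380 CPM in KO, 396 CPM in RE and 432 CPM in WT. Ifi202b, an interferon-inducible gene, was lower, and none of the 22 listed interferon response genes was a member (0.881% of eligible genes are). Of these 22, 4 were lower and 4 higher in both KO and RE, against 31.0% and 28.3% of eligible genes.

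The 4 adult globin genes, which make the alpha and beta chains of hemoglobin in red cells, were all members and higher. Hbb-bs (chromosome 7, 103826534-103828096, minus strand) had 1.46 to 150 CPM in KO (median 10.8), 1.06 to 53.2 CPM in RE (median 9.04) and 1.34 to 70.03 CPM in WT (median 3.77). The highest library of each genotype was the one named above at time point 6, and without these 3 the ranges ended at 42.5 CPM in KO, 26.6 CPM in RE and 14.4 CPM in WT, with medians of 10.04, 8.88 and 3.65 CPM. Hbb-bt had 0.527 to 57.6 CPM in KO (median 4.63), 0.432 to 21.3 CPM in RE (median 3.82) and 0.545 to 31.4 CPM in WT (median 1.82). Hba-a2 had 12.1 to 152 CPM in KO (median 22.1), 10.7 to 56.4 CPM in RE (median 16.3) and 7.06 to 66.7 CPM in WT (median 10.3). Without the 3 libraries Hbb-bt ended at 17.9 CPM in KO, 11.4 CPM in RE and 6.53 CPM in WT, and Hba-a2 at 45.4 CPM in KO, 30.6 CPM in RE and 20.8 CPM in WT. For these genes too the ranges overlapped while the medians were ordered KO, RE, WT, and Hba-a1 was shifted by 0.97 in KO and 0.59 in RE. The erythrocyte list, of which these are 4 of 5 genes, summed to 36.9 to 545 CPM in KO (median 67.8), 29.7 to 203 CPM in RE (median 49.7) and 21.1 to 251 CPM in WT (median 32.1). The part of blood left in the tissue was not tested. RE minus KO was called for Hba-a1 alone (-0.56 ± 0.20, edgeR adjusted p = 0.0364) and not without replicate 4 of time point 6 in KO (adjusted p = 0.18).

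Matrix, membrane and cytoskeleton genes gave 14 lower members and 2 higher ones. Biglycan (Bgn), a matrix proteoglycan, had 0.657 to 4.47 CPM in KO (median 1.63), 1.16 to 15.3 CPM in RE (median 2.77) and 1.43 to 14.2 CPM in WT (median 4.68), with RE minus KO of 1.13 ± 0.24 (edgeR adjusted p = 3.00e-04). Kirrel, an adhesion protein, was also called, at 0.79 ± 0.15 (edgeR adjusted p = 8.23e-05). Syt1, Eps8, Fmnl2, Nckap5, Pmp22, Add2, Map1b, Nhs, Dclk1, Cald1, Tspan2 and Pdpn were lower and not called, with KO shifts from -0.77 for Nhs to -0.40 for Pdpn. Nav3, a microtubule-associated navigator protein, had 1.36 to 10.7 CPM in KO (median 2.58), 1.13 to 7.01 CPM in RE (median 3.36) and 0.418 to 6.05 CPM in WT (median 1.65), with a RE shift of 160% of the KO shift. Syngr1 was the other higher gene, with shifts of 0.67 in KO and 0.45 in RE.

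All 5 transcription regulators outside the clock were lower. Irf4, an interferon regulatory factor of immune and pigment cells, had 0.649 to 16.4 CPM in KO (median 7.19), 7.81 to 23.2 CPM in RE (median 15.5) and 5.39 to 41.7 CPM in WT (median 22.4), and RE was higher than KO by 0.97 ± 0.16 (edgeR adjusted p = 2.36e-06). Irf4 began at 4.80 CPM in KO and 13.5 CPM in WT without the 3 libraries. Rfx2, Elf3, Epop and Zfp365 had KO shifts of -0.71, -0.56, -0.59 and -0.73 and RE shifts of -0.94, -0.45, -0.59 and -0.58, and none was called. The last 3 members were Rpsa, Aknad1 and Fam124b. Rpsa, a ribosomal protein gene, had 9.91 to 18.01 CPM in KO (median 12.8), 10.7 to 22.6 CPM in RE (median 14.1) and 16.2 to 26.2 CPM in WT (median 19.1). It has many near-identical pseudogene copies, so its counts are uncertain, as are those of the paired globin genes, Serpinb3b, Gsdmc, Krt6b, Ifi202b and Ugt1a6a, which have close paralogs.

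The time of day was not used by the rule, and rhythm was tested within each genotype. A 24 h wave was called in WT for 22 of the 100 genes, against 11% of all genes tested. In KO it was called for 5, against 5.87%, and in RE for 4, against 2.7%, both close to the background. The median fitted peak-to-trough swing of the 100 genes was 0.54 in KO, 0.43 in RE and 0.62 in WT on the log2 scale, beside 0.26, 0.22 and 0.26 over all genes. None of the 5 KO calls or the 4 RE calls held whichever single library was left out, whereas 16 of the 22 WT calls did. Differences of rhythm between genotypes were not tested, since they share the contrasts that chose the genes.

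The lower and the higher members that were called rhythmic in WT peaked at different times. Peak times are hours after time point 1, with steps of 4 h assumed. Of the 13 lower members rhythmic in WT, 12 peaked between 7.15 and 15.8 h, and the exception was Aknad1 at 22.5 h. All 9 higher members rhythmic in WT peaked between 20.2 and 24.2 h, that is, within 4 h of the start of the next cycle. Among these higher members, the waves of Fcgr3, Serpinb3b and Serpinb13 were not called without replicate 4 of time point 6 in WT. The same held for the lower member Rasgrf1. The WT waves of Tshz3, at 15.8 h, and of Aknad1 were also lost without some single library (edgeR adjusted p up to 0.127 and 0.0577). Peak times of the other genes rhythmic in WT were not set beside these.

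Pgm5 swung by 2.19 ± 0.38 in WT and peaked at 7.21 h (n = 24, edgeR adjusted p = 2.47e-04). Its mean at time points 1 to 6 was 1.65, 2.22, 1.85, 1.92, 1.54 and 0.926 CPM in KO, 1.53, 3.04, 1.68, 1.87, 2.13 and 1.52 CPM in RE, and 4.00, 8.93, 6.99, 6.49, 3.06 and 1.68 CPM in WT. Most KO and RE means stood near the WT mean of time point 6. Ccnd2 swung by 1.82 ± 0.21 in WT and peaked at 9.05 h (edgeR adjusted p = 5.82e-08), with means of 243, 282, 238, 262, 232 and 226 CPM in KO, 346, 488, 332, 489, 356 and 291 CPM in RE, and 260, 625, 679, 677, 418 and 224 CPM in WT. At time point 1 and time point 6 the RE means of Ccnd2 were above the WT means, so its lower RE median rests on the other time points.

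Among the higher members Plxnd1 swung by 1.87 ± 0.26 in WT with a peak at 22.6 h (edgeR adjusted p = 2.01e-06). Its means were 32.03, 27.8, 34.7, 30.6, 24.0 and 19.2 CPM in KO, 22.7, 20.7, 18.5, 17.8, 16.6 and 19.6 CPM in RE, and 31.9, 16.5, 8.22, 8.33, 14.7 and 20.6 CPM in WT. At time point 1 the KO and WT means were alike, and the distance was widest at time point 3. Abhd12b swung by 1.26 ± 0.21 with a peak at 0.183 h (edgeR adjusted p = 6.94e-05), and Fam124b by 1.81 ± 0.29 with a peak at 22.7 h (3.10e-05). Il33, an alarmin of barrier epithelia, swung by 1.15 ± 0.24 with a peak at 23.9 h (edgeR adjusted p = 0.00176), with means of 180, 149, 167, 195, 149 and 130 CPM in KO, 152, 137, 134, 127, 128 and 144 CPM in RE, and 176, 122, 80.4, 68.2, 91.5 and 110 CPM in WT. For Il33 too the KO and RE means stayed at or above 127 CPM while those of WT dipped to 68.2 CPM at time point 4.

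**Figure D4:**
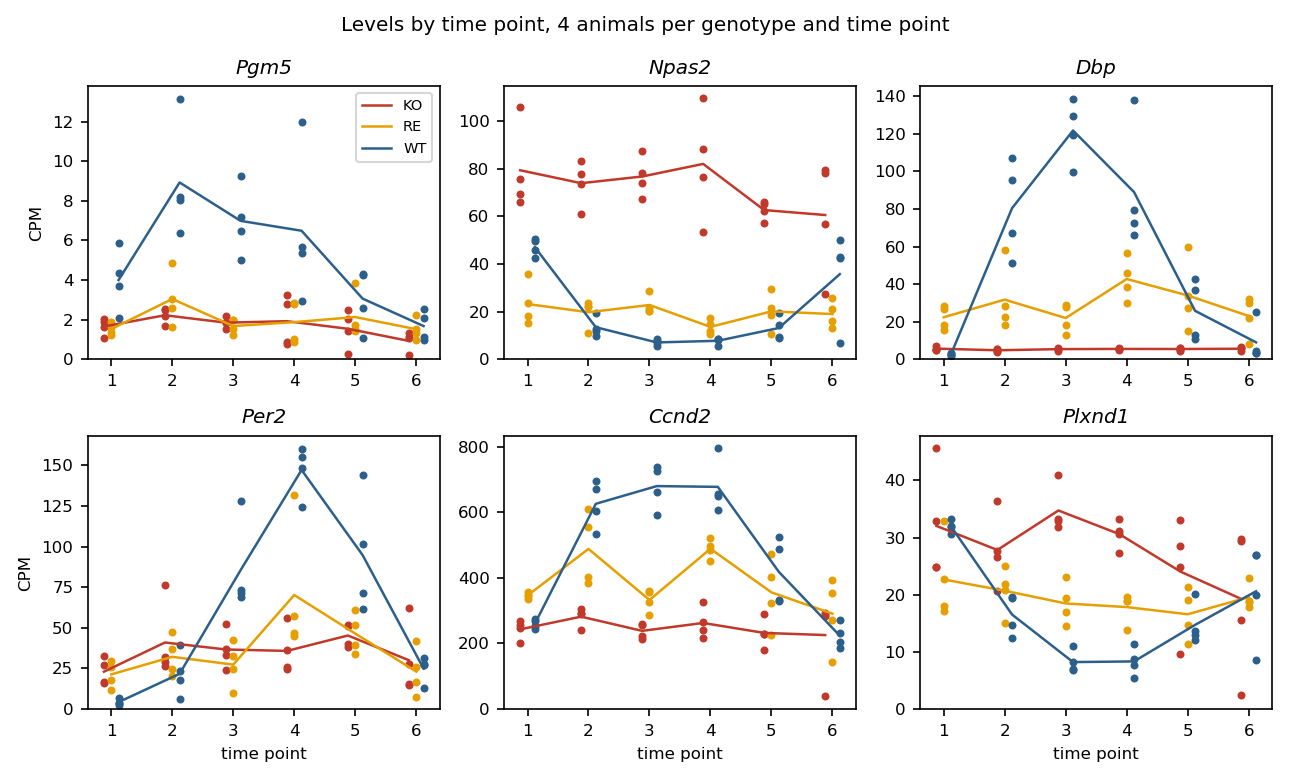
CPM of 6 genes at the 6 time points in KO, RE and WT epidermis, with 4 animals per point and lines through the means. WT lines of Pgm5, Dbp, Per2 and Ccnd2 rise in the middle time points and those of Npas2 and Plxnd1 dip there, while the KO line of Dbp stays between 4.78 and 5.67 CPM.

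Per2, Dbp and Npas2 had the widest WT waves of the 22 called, with swings of 4.51, 4.67 and 2.82. The means of Npas2 at time points 1 to 6 were 79.4, 74.0, 76.8, 82.1, 62.7 and 60.6 CPM in KO, 23.2, 19.7, 22.8, 13.6, 20.1 and 19.0 CPM in RE, and 47.1, 13.5, 7.06, 7.76, 13.1 and 35.8 CPM in WT. RE was thus below WT at time points 1 and 6 and above it at the other 4. Dbp went the other way in RE, with a mean of 22.4 CPM at time point 1 against 2.71 CPM in WT and 22.0 CPM at time point 3 against 122 CPM in WT. For these genes the shift of the RE median sums up time points on both sides of WT.

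Per2 was also called rhythmic in RE, with a swing of 1.51 ± 0.40 and a peak at 12.1 h (edgeR adjusted p = 0.0449), beside a WT peak at 12.2 h. The other RE calls were Krt6b (1.03, 15.0 h), Ugt1a6a (0.71, 19.0 h) and Rpsa (0.47, 4.10 h), and those in KO were Hbb-bs (2.74, 19.1 h), Il31ra (2.25, 23.4 h), Tspan2 (1.73, 21.9 h), Lhx2 (1.67, 22.3 h) and Elmod1 (0.74, 7.60 h). Without replicate 4 of time point 6 in KO none of the 5 KO calls held, with adjusted p of 0.542 for Hbb-bs, 0.369 for Tspan2, 0.235 for Lhx2, 0.084 for Il31ra and 0.056 for Elmod1. Without replicate 1 of time point 6 in RE, Per2 (0.071), Ugt1a6a (0.169) and Rpsa (0.081) lost their RE calls. The RE call of Krt6b was lost without replicate 1 of time point 5 in RE (edgeR adjusted p = 0.538), its highest RE library. The further genes rhythmic in WT were Ccnd1 (1.43, 10.4 h), Ptprz1 (1.40, 9.56 h), Krt4 (1.31, 11.7 h), Epop (1.16, 12.3 h), Rasgrf1 (1.16, 7.15 h), Pfkfb3 (1.01, 8.73 h), Ephx1 (0.86, 8.90 h) and Tshz3 (0.57, 15.8 h) among the lower members, and Serpinb13 (1.34, 23.5 h), Serpinb3b (0.99, 22.7 h), Fcgr3 (0.96, 20.2 h) and Rassf6 (0.92, 22.0 h) among the higher. Without replicate 4 of time point 6 in WT the WT wave was not called for Fcgr3 (adjusted p = 0.622), Serpinb3b (0.127), Rasgrf1 (0.104) and Serpinb13 (0.079).

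Variation between animals of 1 genotype and time point was used to see which genes moved together, as correlations of log2 CPM over 72 libraries after the mean of each of the 18 groups was taken out. The points share libraries and their total counts, so these values are descriptions. The median correlation was 0.20 between higher members, 0.09 between lower members and -0.05 between a lower and a higher one, beside 0.07 over all eligible genes, and the median absolute correlation was 0.233 both within the set and over all eligible genes. The closest pairs were Hba-a1 with Hba-a2 (0.99), Hbb-bs with Hbb-bt (0.99), Tbx1 with Lhx2 (0.94), Azin1 with Slc20a1 (0.91) and Ccnd2 with Ccnd1 (0.91). Ccnd2 with Ccnd1 stood at 0.71 without the 3 libraries, and the other 4 pairs at 0.92 to 0.98.

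Of the 100 genes, 41 correlated above 0.5 with the mean of at least 1 of 12 cell type marker lists, against 13% of eligible genes, and 35 did without the 3 libraries, against 9.7%. With follicle markers stood Tbx1 (0.78), Lhx2 (0.71), Lgr5 (0.70), Sardh (0.67) and Shisa2 (0.64), 10 genes in all, against 0.81% of eligible genes. With Langerhans cell markers stood 15 genes, against 9.25% of eligible genes, among them Gem (0.79), Bhlhe40 (0.74) and Tiparp (0.74). Fibroblast markers had 16 (0.687% of eligible genes), among them Bgn (0.66) and Eps8 (0.65), melanocyte markers 6 (0.396%), led by Gli1 (0.76), and sebaceous gland markers 5 (1.04%), led by Elovl3 (0.89) and Cyp1a1 (0.81). Without the 3 libraries follicle markers had 11 (0.387% of eligible genes), Langerhans cell markers 10 (4.54%) and fibroblast markers 15 (1.7%). Melanocyte markers then had 8 (1.1%) and sebaceous gland markers 6 (1.36%). Gem, Bhlhe40 and Tiparp then stood at 0.59, 0.53 and 0.68 with Langerhans cell markers. Endothelium markers had 6 (0.229%), and 12 without the 3 libraries (0.81%). Markers of resident T cells had 4 (5.03%), and 0 without the 3 libraries (1.36%). Keratinocyte, Merkel cell and skeletal muscle markers had none over all 72 libraries, against 0.335%, 0% and 0.0264% of eligible genes. For keratinocyte markers the count was 1 without the 3 libraries (2.29%). Each gene was left out of its own list. Summed fibroblast markers were low, with medians of 10.3 CPM in KO, 12.8 CPM in RE and 12.8 CPM in WT, and the part of these cells in the shifts was not tested.

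**Figure D5:**
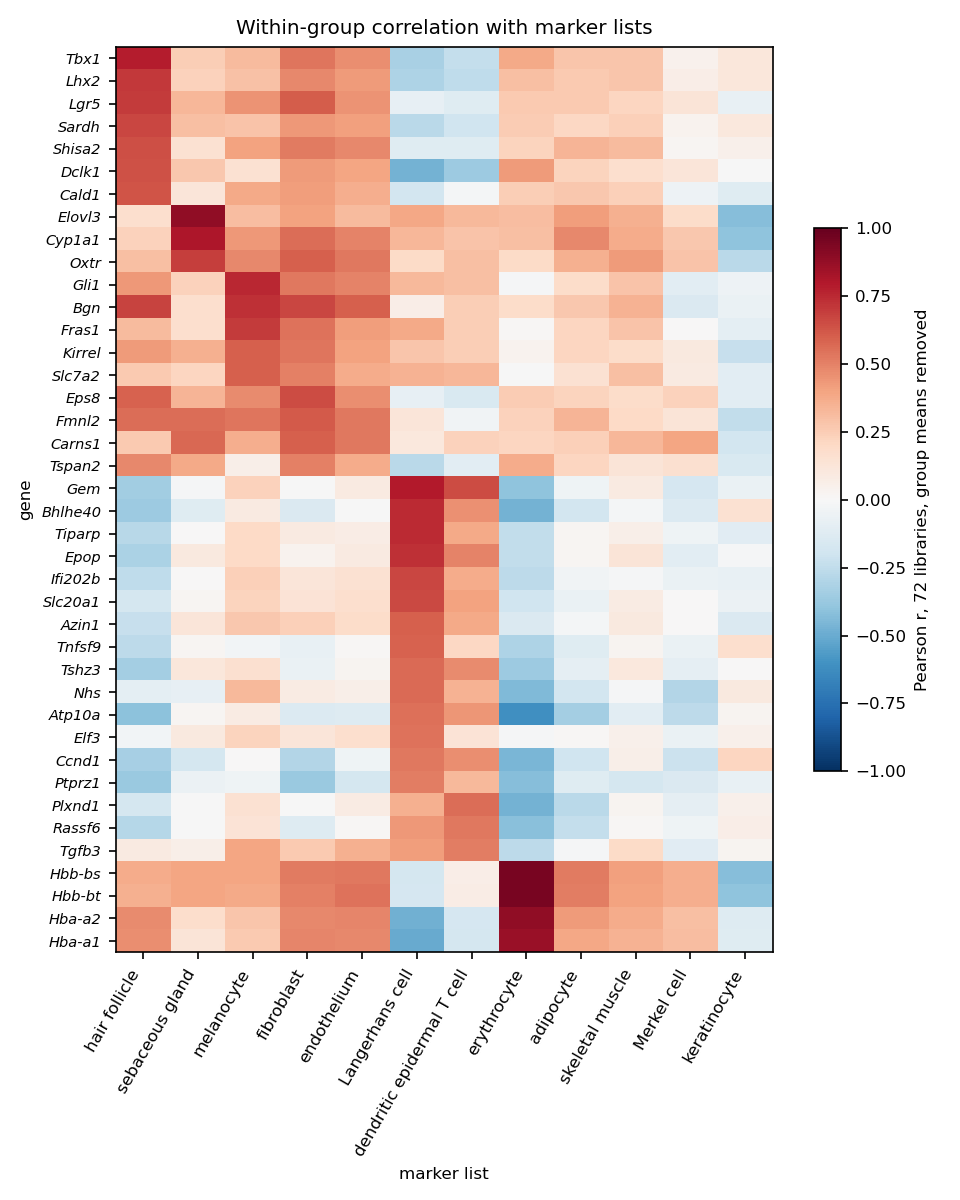
Pearson correlation of 40 of the genes with the mean log2 CPM of 12 cell type marker lists over 72 libraries, after group means were taken out, coloured from -1 (blue) to 1 (red). Follicle regulators such as Tbx1 and Lhx2 lie in the follicle column, Gem, Bhlhe40 and Tiparp in the Langerhans cell column and the globins in the erythrocyte column.

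Position was examined because KO and RE share the altered Arntl allele, which lies on chromosome 7 (113207465-113314126, plus strand), and WT lacks it. None of the 49 eligible genes within 5 Mb of Arntl was a member, and within 20 Mb 3 of 277 were (1.08%, against 0.881% of all eligible genes). These were Hbb-bs and Hbb-bt at 9.4 Mb and Lrrc32 at 14.7 Mb on the side of lower coordinates. Chromosome 1 held 14 members of 652 eligible genes (2.15%) and chromosome 15 held 9 of 450 (2.00%). Neighbours within 1 Mb formed 5 pairs, namely Serpinb13 with Serpinb3b, Hba-a1 with Hba-a2, Hbb-bt with Hbb-bs, Krt6b with Krt4, and Rfx2 with Tnfsf9.

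Promoters, from 250 bases before to 50 after the start in RefSeq (GRCm38.p6), were found for 72 of the 100 genes and searched on both strands for the letters of clock elements. The E-box CACGTG was present in 8 (11.1%), beside 11.9% of eligible genes and 8.09% of all promoters. The D-box form TTATGNAA, bound by Dbp and its relatives, was present in 5 (6.94%), beside 2.40% and 3.99%, and the form TTANGTAA in 2 (2.78%), beside 1.78% and 2.72%. The response element of Rev-erb and ROR receptors was present in none, beside 0.144% and 0.259%. The looser CANNTG, which includes every CACGTG, was in 59 (81.9%), beside 67.0% and 74.99%. Counts of 5 and 8 genes give little ground for a comparison. Of the 16 genes rhythmic in WT that had a promoter, 1 held CACGTG (Pfkfb3, 53 bases before the start) and 2 held TTATGNAA (Il33, 85 before, and Serpinb3b, 111 before). Their windows are shown because a WT wave was called and a clock element was matched, with the match in capitals. A gene was counted if any of its windows held the letters. Pfkfb3 and Il33 had 2 windows each, and the first with a match is shown. Distances are from the RefSeq start of the window shown. For Pfkfb3 this start lies inside the gene span given above, so it is not the outermost one. The wave of Serpinb3b was lost when each of the 4 replicate numbers was left out in turn (edgeR adjusted p 0.068 to 0.109) and was called without the 3 libraries together (0.032). For Il33 the match is on the opposite strand. The letters mark a match, not a bound site.
Pfkfb3 (chr2:11502041-11502340, minus strand): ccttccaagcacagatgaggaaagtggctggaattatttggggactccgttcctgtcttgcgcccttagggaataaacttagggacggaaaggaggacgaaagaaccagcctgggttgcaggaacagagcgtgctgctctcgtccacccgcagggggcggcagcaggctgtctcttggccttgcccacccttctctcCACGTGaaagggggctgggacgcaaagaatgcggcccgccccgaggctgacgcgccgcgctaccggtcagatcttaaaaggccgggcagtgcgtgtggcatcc
Il33 (chr19:29945540-29945839, plus strand): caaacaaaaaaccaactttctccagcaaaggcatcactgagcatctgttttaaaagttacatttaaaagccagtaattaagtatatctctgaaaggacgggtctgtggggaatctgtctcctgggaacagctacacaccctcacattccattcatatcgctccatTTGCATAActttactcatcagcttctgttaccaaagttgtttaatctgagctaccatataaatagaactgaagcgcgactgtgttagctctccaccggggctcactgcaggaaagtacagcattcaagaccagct
Serpinb3b (chr1:107161065-107161364, minus strand): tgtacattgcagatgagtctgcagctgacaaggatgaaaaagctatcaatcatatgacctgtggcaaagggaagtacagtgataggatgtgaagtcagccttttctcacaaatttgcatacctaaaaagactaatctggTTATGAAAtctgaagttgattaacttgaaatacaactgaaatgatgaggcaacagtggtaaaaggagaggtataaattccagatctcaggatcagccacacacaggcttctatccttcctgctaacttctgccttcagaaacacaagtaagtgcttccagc
Pfkfb3 peaked at 8.73 h in WT and was lower in KO and RE, and Il33 and Serpinb3b peaked at 23.9 and 22.7 h and were higher in both.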

How the data were processed

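RNA from 72 epidermis samples, 24 per genotype, was sequenced. The authors deposited raw read counts per Ensembl gene; per the submitters' processing notes these came from Trimmomatic, TopHat2 2.1.1 and featureCounts on GRCm38 (mm10). The sources used here do not name the annotation release, the strand setting or the handling of multi-mapping reads. Names and coordinates are from GENCODE on GRCm38. Printed CPM are counts per library total. Genotype, time point and replicate were read from the labels, which give no hour per time point. R 4.3.3 and edgeR 4.0.16 were used: TMM factors, a filter with a minimum count of 10 (18538 genes, all 100 members kept), robust quasi-likelihood F tests on 63 residual degrees of freedom, Benjamini-Hochberg adjustment. The model was tested on simulated data. All 108 replicate pairs differed by more than sampling noise (chi-square per gene 7.67 to 269). Alternatives included limma 3.58.1 voom and DESeq2 1.42.0. The members and gene lists were chosen with earlier results of these data known, and roles after values were seen. Genes given in full were the 10 highest ranked in each direction, up to 8 with the smallest p for RE minus KO or a WT rhythm, up to 4 per gene list or per KO or RE rhythm, those near Arntl and those at the end of the list. Further genes were chosen after their values were seen. 1 member is counted in the totals and not reported here.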

Additional observations from a re-analysis of the deposited data

Results flagged for a closer look

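Single animals far from the other 3 of their group were looked for in 6 genes shown by time point, and 10 of 108 groups held one, where chance gives about 1 in 20. In KO these were Per2 at time point 2 (76.2 CPM), Ccnd2 at time point 6 (38.5 CPM) and Plxnd1 at time point 3 (41.0 CPM). In RE they were Pgm5 at time point 5 (3.86 CPM), Npas2 at time points 2 and 3 (11.2 and 28.8 CPM), Per2 at time point 4 (132 CPM) and Plxnd1 at time point 4 (13.8 CPM). In WT they were Dbp at time point 6 (25 CPM) and Per2 at time point 3 (128 CPM).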

How the results depend on the processing

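Of the 100 members, other forms of the rule kept 67 (median of time-matched differences) to 96 (prior count 0.5), and 30 were kept by all 10 forms. Members called for RE minus KO numbered 25 and 22 to 29 under every alternative, and 21 of the 25 were called whichever single library was left out (the exceptions were Pde1b, Fras1, Fam124b and Hba-a1). Neto2 and Rassf6, which are not among these exceptions, lost their calls when some replicate number was left out. Members rhythmic in WT numbered 22 and 16 to 25, except 12 without replicate 3; leaving out 1 replicate number gave 12 to 16 and 1 library 18 to 23. The 5 members rhythmic in KO became 2 with library totals, 0 without the low-count filter, 11 with time points as a factor, 0 with limma-voom, 12 with DESeq2, 0 without the 3 libraries lowest on the first component (an alternative chosen after seeing the data), 0 to 2 without 1 replicate number and 0 to 11 without 1 library. The 4 in RE became 2 with library totals, 0 without the filter, 1 with limma-voom, 2 without the 3 libraries, 0 to 1 without 1 replicate number and 0 to 4 without 1 library. Shares of all genes called under each alternative are not given here, so these counts are not set against a background. The cause of the changes in number was not tested. RE minus KO changed sign without replicate 2 for Pgm5 (-0.030) and Npr3 (-0.044), neither of which was called, and ranged up to 0.34 and 0.40 without another replicate number. Same-numbered animals of different genotypes did not in general deviate together (correlations -0.49 to 0.68, median 0.05, 28 of 72 over 0.1), so the numbers were not used to pair them. The highest, 0.68, was between replicate 4 of time point 6 in KO and in WT, and a batch shared by some numbers was not tested. With a replicate block 25 members were called for RE minus KO, 18 were rhythmic in WT, 2 in KO and 2 in RE. Depth was not varied; members such as Igfbp5 in KO (median 0.732 CPM) rest on few counts.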
